A study of Homo sapiens with 6 samples.

Results

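The genes described here are 37 targets of the transcription factor ATF4 and cytosolic aminoacyl-tRNA synthetases, taken by gene symbol from the 23024 genes listed for 5637 cells, an established human bladder carcinoma line. They comprise 7 stress factors, 9 enzymes of amino acid synthesis, a secreted protein with a lipoprotein receptor, and 19 synthetase genes. RNA was measured in 3 libraries named sh-RAD51C, labelled as a knockdown of the homologous recombination gene RAD51C, and in 3 libraries named NC, labelled as wild type. Both groups were transfected. The labels do not spell out NC, give no hairpin sequence, and do not say that replicate libraries were grown apart. The p-values below thus rest on library-to-library spread that could be technical only.

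ATF4 is the main transcription factor of the integrated stress response. Kinases that sense amino acid shortage, endoplasmic reticulum stress, haem deficiency or viral RNA phosphorylate the initiation factor eIF2, which lowers general translation while translation of the ATF4 mRNA goes up. With a C/EBP partner, ATF4 protein then binds composite elements in genes for amino acid synthesis, amino acid uptake and tRNA charging. Because ATF4 is controlled largely through translation, its mRNA level need not follow its activity.

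Of the 37 genes, 33 had a mean of at least 1 FPKM (fragments per kilobase of transcript, scaled to the size of the library, so that levels are per length) and were tested. In sh-RAD51C, 18 of them were higher and 4 were lower. The synthetases made up most of the rises, with 13 of 19 higher and 1 lower, while the stress factors and the synthesis enzymes had genes called in both directions. The highest rise was that of STC2, at 43.5 ± 1.22 FPKM in sh-RAD51C and 17.3 ± 0.713 FPKM in NC (SD, n = 3 each). ATF4 mRNA itself was not called.

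These counts stand against a wide background. Over all 11152 genes tested, limma at a Benjamini-Hochberg adjusted p under 0.05 called 49.4%, of which 23.2% were higher and 26.2% lower. The share of the 33 called higher was 54.5% and the share called lower was 12.1%. Among the synthetases alone 68.4% were called higher and 5.26% lower. The groups did not overlap in 22 of the 33 genes (66.7%), against 58.4% of all genes tested. The median log2 fold change, on the log2(FPKM + 1) scale used throughout, was 0.18 for the synthetases, 0.04 for the synthesis enzymes and 0.05 for the stress factors, and -0.01 over all genes.

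RAD51C was lower in every sh-RAD51C library. It held 3.51, 3.09 and 2.95 FPKM in sh-RAD51C 1, 2 and 3, against 14.7, 13.2 and 13.6 FPKM in NC 1, 2 and 3, or -1.83 ± 0.064 as a log2 fold change (SE; limma adjusted p = 7.16e-09). By exact permutation (two-sided) p was 0.1, the floor for 3 libraries against 3. Inferred depth ran from 37104318 to 38079825 reads per sh-RAD51C library and from 36068282 to 37560184 reads per NC library. Of 10 urothelial and epithelial markers, 9 averaged at least 1 FPKM, and the list summed to 2664 to 2767 FPKM in sh-RAD51C and 2906 to 2997 FPKM in NC. Of those 9 markers, 5 were higher and 4 lower in sh-RAD51C. The 7 fibroblast markers (2 tested) summed to 12.1 to 12.9 FPKM in sh-RAD51C and 14.6 to 14.9 FPKM in NC, nearly all of it COL1A1 and THY1, with COL1A2 at 0 in 5 of 6 libraries. The 6 endothelial markers (0 tested) summed to 0.331 to 0.458 FPKM in sh-RAD51C and 0.16 to 0.254 FPKM in NC. The 7 blood cell markers (3 tested) summed to 90.1 to 94.9 FPKM in sh-RAD51C and 96.1 to 103.8 FPKM in NC, mostly LAPTM5, with the pan-leukocyte gene PTPRC at or below 0.0122 FPKM. The part of these markers in the results was not tested, and in bulk RNA fewer cells and less RNA per cell cannot be told apart.

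The ATF4 element can be seen in the promoters of several of these genes. RefSeq start sites (GRCh38.p14) gave windows from 250 bases before to 50 after the start for 30 of the 37, without LARS1, VARS1, YARS1, SHMT2, NUPR1, PYCR1 and PSPH. The composite C/EBP-ATF element was searched as TGATGNAA on both strands. It was present for 10 of the 30 genes (33.3%), against 4.46% of 27305 genes with a window and 2.6% of the 9031 tested genes with one. The 37 genes were picked as ATF4 targets and synthetases, so the higher share is a description and not an independent result. The 10 matches are printed because they show the shared letters, each with 10 flanking bases on the strand that reads the element forward, with the element in capitals.
ASNS: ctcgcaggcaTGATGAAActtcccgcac
GARS1: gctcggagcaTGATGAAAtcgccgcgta
AARS1: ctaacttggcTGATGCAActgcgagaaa
CARS1: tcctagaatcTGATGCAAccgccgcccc
IARS1: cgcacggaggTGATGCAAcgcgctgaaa
MARS1: aatccctcgcTGATGCAAccggaaccgg
NARS1: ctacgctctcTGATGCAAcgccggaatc
TARS1: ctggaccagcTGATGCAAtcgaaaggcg
CEBPG: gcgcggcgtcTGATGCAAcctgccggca
CHAC1: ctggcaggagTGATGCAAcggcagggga

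The ASNS stretch lies at chr7:97872459-97872486 on the minus strand, that of GARS1 at chr7:30594835-30594862 (minus), that of AARS1 at chr16:70289676-70289703 (plus) and that of CARS1 at chr11:3057408-3057435 (plus). IARS1 has its stretch at chr9:92293693-92293720 (plus), MARS1 at chr12:57488054-57488081 (minus), NARS1 at chr18:57621805-57621832 (minus) and TARS1 at chr5:33440957-33440984 (minus). For CEBPG it is chr19:33374061-33374088 (plus) and for CHAC1 chr15:40953252-40953279 (minus). The variable base of the element was C in 8 of the 10 and A in ASNS and GARS1. In most of them the element lies close to the start, from -13 to -6 in IARS1, -33 to -26 in GARS1 and -42 to -35 in CEBPG. A match describes letters only and is not shown to be a bound site.

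Calls were made with and without the element. Of the 8 tested genes with it, 5 were called higher and 0 lower, with a median log2 difference of 0.15. Of 19 tested genes with a window that lacked these letters, 9 were higher and 4 lower, with a median of 0.14. Over all genes tested, 23.2% were called higher and 26.2% lower. Among synthetases alone, 5 of 7 with the element and 5 of 9 without it were called higher, with medians of 0.18 and 0.17. AARS1 and CARS1 hold the same 8 letters as MARS1 and TARS1, of which MARS1 and TARS1 were called and AARS1 and CARS1 were not.

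A palindromic E-box, CACGTG, which is read by MYC and related factors, was present for 3 of the 30 genes (10%), against 8.77% of all genes with a window and 12.7% of tested genes. These were IARS1, ALDH18A1 and ATF4. IARS1 holds both motifs, so the 200 bases before its start are shown, at chr9:92293698-92293897 on the minus strand, with the E-box and, in reverse complement, the composite element in capitals.
IARS1: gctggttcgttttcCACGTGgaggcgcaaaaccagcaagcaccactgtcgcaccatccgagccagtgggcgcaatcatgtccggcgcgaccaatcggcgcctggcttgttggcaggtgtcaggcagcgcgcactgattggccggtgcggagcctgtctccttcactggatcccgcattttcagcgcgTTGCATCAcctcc

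**Figure D1:**
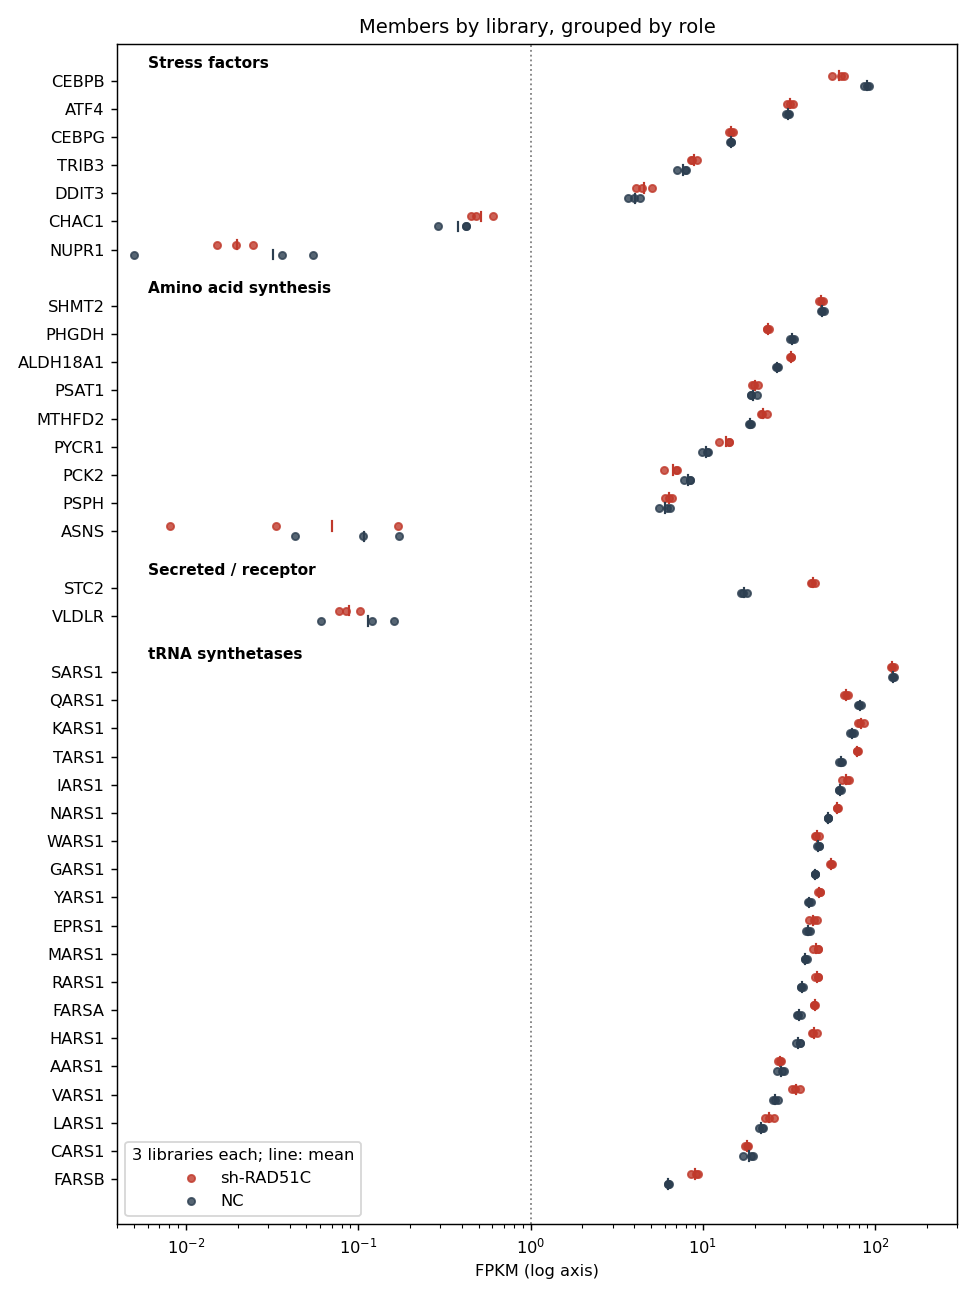
FPKM of the 37 genes in each library on a log axis, by role, with sh-RAD51C above NC in each row, points for the 3 libraries of a group and a line at the group mean. The dotted line marks 1 FPKM, and ASNS, CHAC1, NUPR1 and VLDLR lie below it in all 6 libraries.

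Among the stress factors, the transcription factors and regulators through which the response acts, 1 gene rose, 1 fell and 3 were not called of 5 tested. The share was 20% in each direction, against 23.2% of all genes higher and 26.2% lower. ATF4, on chromosome 22 from 39519695 to 39522685, held 33.3, 32.2 and 30.8 FPKM in sh-RAD51C 1, 2 and 3, against 31.0, 30.4 and 31.5 FPKM in NC 1, 2 and 3. The groups overlapped, and the log2 fold change was 0.05 with a 95% interval of -0.04 to 0.14 (limma adjusted p = 0.33). DDIT3 encodes CHOP, the proapoptotic partner factor of prolonged stress. It held 4.44, 5.08 and 4.07 FPKM in sh-RAD51C, against 3.7, 4.34 and 4 FPKM in NC, from 157 to 222 inferred reads per library. The groups overlapped and the gene was not called (log2 fold change 0.14, interval -0.03 to 0.31, limma adjusted p = 0.159). DDIT3 shares 355 exonic bases (27.2% of its own) with MARS1 on the other strand, and strand use in the counting is not given in the sources used here.

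TRIB3, a pseudokinase induced by ATF4 and CHOP that feeds back on them, was the stress factor called higher. It held 8.56, 9.27 and 8.68 FPKM in sh-RAD51C, against 7.93, 7.84 and 7.12 FPKM in NC. Every sh-RAD51C library lay above every NC library, a log2 difference of 0.19 ± 0.056 (SE; limma adjusted p = 0.0152). The call was lost without NC replicate 3 (limma adjusted p = 0.0652) and without sh-RAD51C replicate 2 (limma adjusted p = 0.0612) and held in the other 13 of 15 alternatives, with limma adjusted p from 0.0129 to 0.0457. CEBPG, a dimerization partner of ATF4, was not called, at 14.3, 15.0 and 14.5 FPKM in sh-RAD51C and 14.5, 14.4 and 14.5 FPKM in NC. Its log2 fold change was 0.01 with an interval of -0.08 to 0.10.

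CEBPB, a C/EBP factor of stress and inflammatory gene control, was lower. It held 63.6, 55.8 and 65.8 FPKM in sh-RAD51C, against 92.3, 89.8 and 86 FPKM in NC, so that the groups lay far apart. Its log2 difference was -0.53 ± 0.056 (SE; limma adjusted p = 1.79e-05), which lay beyond the 5th percentile of all genes (-0.50). The gene occupies chromosome 20 from 50190734 to 50192689, and 231 of its exonic bases (11.8%) are shared with CEBPB-AS1 on the other strand. CEBPB-AS1 was also lower, at 2.37 ± 0.193 FPKM in sh-RAD51C and 3.33 ± 0.273 FPKM in NC (SD, n = 3 each; limma adjusted p = 0.00145). Without strand, reads within those 231 bases cannot be assigned to one gene of the pair.

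CHAC1 and NUPR1 were under the limit of 1 FPKM. CHAC1, a glutathione-degrading enzyme induced by ATF4, held 0.453, 0.603 and 0.485 FPKM in sh-RAD51C, from 105, 136 and 112 inferred reads, against 0.292, 0.42 and 0.425 FPKM in NC, from 64, 96 and 97 reads. The groups did not overlap, but with no limit on low values limma over 23024 genes gave an adjusted p of 0.165. NUPR1, a small chromatin-associated stress protein, had 1 to 11 inferred reads per library.

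Enzymes of amino acid synthesis were called in both directions, with 3 higher, 2 lower and 3 not called of 8 tested. The share called was 62.5%, against 49.4% of all genes. By direction, 37.5% were higher, against 23.2% of all genes, and 25% were lower, near the 26.2% of all genes. PHGDH catalyses the first committed step of serine synthesis from the glycolytic intermediate 3-phosphoglycerate, and PSAT1 and PSPH catalyse the steps after it. PHGDH, on chromosome 1 from 119648411 to 119744226, held 24.3, 23.7 and 23.6 FPKM in sh-RAD51C, against 32.8, 33.7 and 32.0 FPKM in NC. Every sh-RAD51C library lay below every NC library, at -0.44 ± 0.038 on the log2 scale (SE; limma adjusted p = 3.36e-06).

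The later serine enzymes were not called. PSAT1 held 19.9, 19.2 and 20.8 FPKM in sh-RAD51C and 20.5, 19.1 and 19.0 FPKM in NC, with overlapping groups and an interval of -0.07 to 0.13. PSPH averaged 6.32 ± 0.304 FPKM in sh-RAD51C and 6.07 ± 0.42 FPKM in NC (SD, n = 3 each), with an interval of -0.08 to 0.19. The FPKM ratio of PHGDH to PSAT1 was 1.22, 1.24 and 1.14 in sh-RAD51C, against 1.6, 1.77 and 1.68 in NC. That ratio was chosen after the values were seen and is given as a description.

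Mitochondrial one-carbon metabolism takes the serine onward. SHMT2, which splits serine to glycine and a one-carbon unit, held 49.6, 48.6 and 46.9 FPKM in sh-RAD51C, against 48.5, 48.9 and 50.3 FPKM in NC, and was not called (interval -0.10 to 0.06). MTHFD2, which oxidizes that unit, held 23.6, 21.8 and 21.9 FPKM in sh-RAD51C, against 19.1, 18.6 and 18.8 FPKM in NC. Its groups did not overlap and it was higher by 0.24 ± 0.042 on the log2 scale (SE; limma adjusted p = 7.90e-04). SLC4A5 exons on the other strand cover 27.2% of those of MTHFD2, but that gene averaged 0.213 FPKM.

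Both proline enzymes rose. ALDH18A1 makes the proline precursor from glutamate and PYCR1 carries out the last reduction to proline. ALDH18A1 held 32.4, 32.5 and 31.8 FPKM in sh-RAD51C, against 26.4, 27 and 27.1 FPKM in NC, higher by 0.26 ± 0.035 on the log2 scale (SE; limma adjusted p = 1.32e-04). PYCR1 held 14.2, 14.2 and 12.5 FPKM in sh-RAD51C, against 10.5, 9.93 and 10.7 FPKM in NC. At 0.36 ± 0.057 (SE; limma adjusted p = 3.56e-04) it was the largest rise among the 8 synthesis enzymes tested from the set of 37 genes. Exons of other genes cover 29.7% of those of PYCR1. A transcript on the other strand (ENSG00000263585.1), for which no level was found, covers 15.6%. MYADML2 on the same strand covers 14.1% and averaged 0.00188 FPKM. PCK2, the mitochondrial enzyme that turns oxaloacetate to phosphoenolpyruvate, went down. It held 7.01, 7.1 and 5.91 FPKM in sh-RAD51C, against 8.38, 7.8 and 8.39 FPKM in NC, a log2 difference of -0.26 ± 0.067 (SE; limma adjusted p = 0.00701).

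ASNS, which makes asparagine and is a standard ATF4 readout, was listed near 0 in all libraries. It held 0.171, 0.0333 and 0.00814 FPKM in sh-RAD51C, from 21, 4 and 1 inferred reads, against 0.0429, 0.173 and 0.107 FPKM in NC, from 5, 21 and 13 reads. The groups overlapped, and no change was detectable at this depth. The listed level may not be that of the gene. The read-through RNA CZ1P-ASNS is annotated by RefSeq on chromosome 7 from 97852117 to 97972358, a span that holds the GENCODE gene ASNS (97852118 to 97872542). In GENCODE, 1985 exonic bases of ASNS (44.6%) are shared with a transcript (ENSG00000284707.1) on the same strand. CZ1P-ASNS had 0.528 ± 0.0365 FPKM in sh-RAD51C and 0.513 ± 0.164 FPKM in NC (SD, n = 3 each). How reads shared by both genes were counted is not given in the sources used here, and the part of that overlap was not tested.

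STC2 encodes stanniocalcin 2, a secreted glycoprotein induced by ATF4 in the unfolded protein response. It lies on chromosome 5 from 173314713 to 173329503. STC2 held 42.5, 44.8 and 43.1 FPKM in sh-RAD51C, from 6883, 7077 and 6962 inferred reads, against 18.1, 17 and 16.7 FPKM in NC, from 2774, 2723 and 2670 reads. The groups were far apart, by 1.28 ± 0.042 on the log2 scale (SE; limma adjusted p = 4.12e-09), the 24th highest of 11152 genes. VLDLR, a lipoprotein receptor also reported as an ATF4 target, was listed at 0.077, 0.0848 and 0.103 FPKM in sh-RAD51C and 0.12, 0.162 and 0.0607 FPKM in NC, with 21 to 56 inferred reads per library and overlapping groups.

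**Figure D2:**
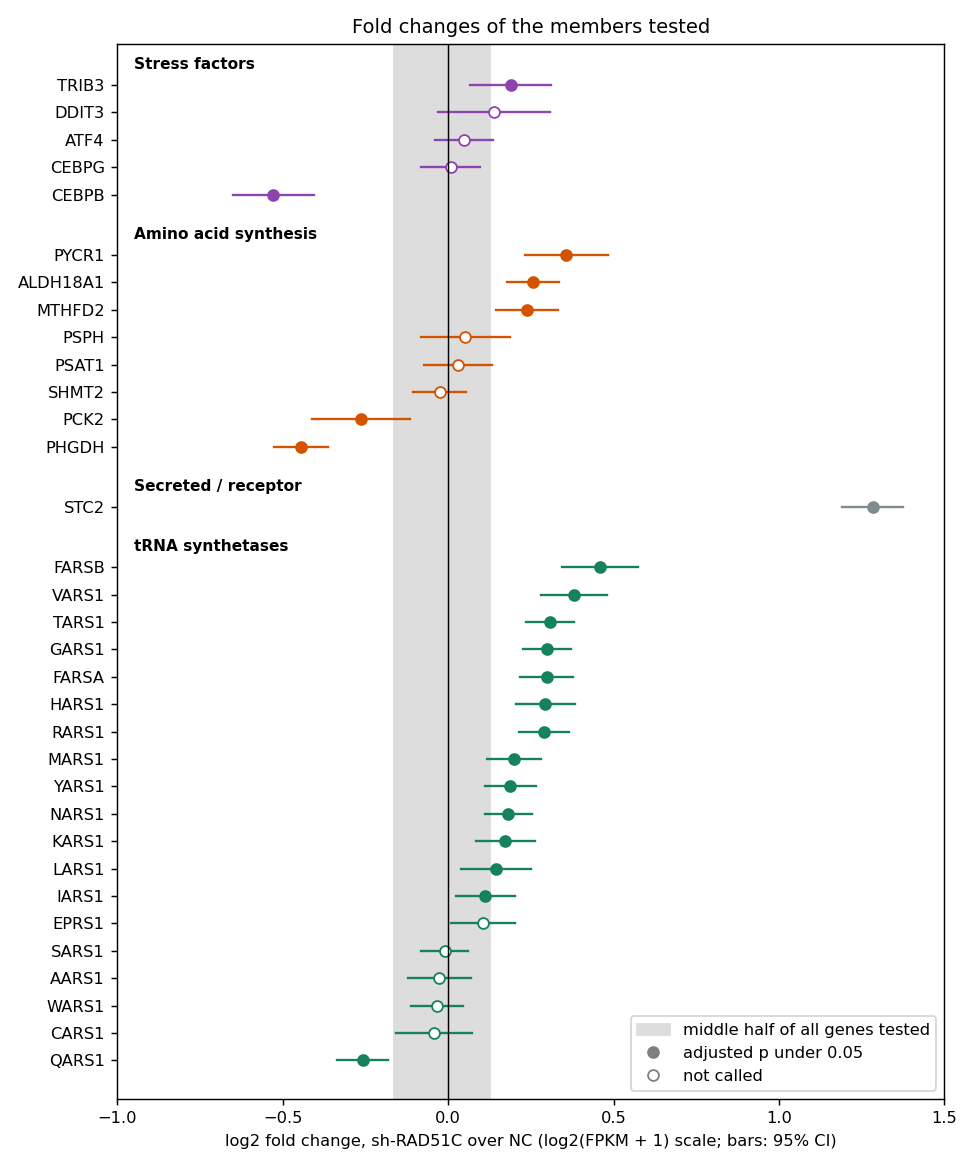
Log2 fold changes of the 33 genes tested, sh-RAD51C over NC, with 95% intervals from limma; filled points passed an adjusted p under 0.05 and the grey band lies between the quartiles of all genes (-0.16 and 0.13). STC2 stands at 1.28, most synthetases lie between 0.1 and 0.5, and of the 9 genes below 0 only CEBPB, PHGDH, PCK2 and QARS1 were called.

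The synthetases attach amino acids to their tRNAs, one enzyme for each amino acid in the cytosol apart from a fused one. All 19 genes were tested. Summed over them, FPKM ran from 961 to 973 in the sh-RAD51C libraries and from 876 to 894 in the NC libraries, so the sums did not overlap. The changes were small, from -0.26 to 0.46 on the log2 scale. Of all 33 genes tested only FARSB and STC2 lay above the 95th percentile of all genes (0.43), and only CEBPB below the 5th.

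FARSB and FARSA encode the 2 subunits of phenylalanyl-tRNA synthetase, and both rose. FARSB, on chromosome 2 from 222570536 to 222656337, held 9.43, 9.06 and 8.52 FPKM in sh-RAD51C, against 6.24, 6.33 and 6.26 FPKM in NC, higher by 0.46 ± 0.052 on the log2 scale (SE; limma adjusted p = 3.05e-05). FARSA held 44.1, 44.9 and 44.4 FPKM in sh-RAD51C, against 35.1, 35.8 and 37.2 FPKM in NC, higher by 0.30 ± 0.036 on the log2 scale (SE; limma adjusted p = 5.04e-05). The FPKM ratio of FARSB to FARSA was 0.214, 0.202 and 0.192 in sh-RAD51C, against 0.178, 0.177 and 0.168 in NC, a description chosen after the values were seen. The ratio does not give the balance of the subunit mRNAs, since the gene length behind the FARSB values was inferred as 9202 bases, 2.73 times the exonic bases of FARSB in GENCODE.

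Larger rises than most were also seen for the enzymes of valine, threonine, glycine, histidine and arginine. VARS1 held 33, 36.6 and 34.1 FPKM in sh-RAD51C, against 26.2, 25.5 and 27.2 FPKM in NC, a log2 fold change of 0.38 ± 0.046 (SE). TARS1 held 78.2, 79.3 and 77.9 FPKM in sh-RAD51C, against 62, 63.5 and 64.3 FPKM in NC, a log2 fold change of 0.31 ± 0.033 (SE). For GARS1 the values were 55.1, 54.6 and 56.4 FPKM in sh-RAD51C and 44.5, 44.9 and 45 FPKM in NC. In these genes the libraries of each group lay close together and well apart from the other group.

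HARS1, for histidine, held 45.9, 43.2 and 43.3 FPKM in sh-RAD51C, against 34.5, 36.4 and 36.6 FPKM in NC. RARS1, for arginine, averaged 46.1 ± 0.936 FPKM in sh-RAD51C and 37.5 ± 0.412 FPKM in NC (SD, n = 3 each). Across VARS1, TARS1, GARS1, HARS1 and RARS1 the largest limma adjusted p was 1.30e-04, for HARS1, and all were called in each of the 15 alternatives. HARS1 lies head to head with HARS2, its mitochondrial counterpart, and they share 437 exonic bases on opposite strands.

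A further 6 synthetases rose by less. MARS1, for methionine, rose by 0.20 on the log2 scale, YARS1 (tyrosine) by 0.19, NARS1 (asparagine) by 0.18, KARS1 (lysine) by 0.17, LARS1 (leucine) by 0.14 and IARS1 (isoleucine) by 0.11. MARS1 averaged 45.3 ± 1.59 FPKM in sh-RAD51C and 39.4 ± 0.542 FPKM in NC, and NARS1 60.3 ± 0.629 FPKM in sh-RAD51C and 53 ± 0.171 FPKM in NC (SD, n = 3 each). IARS1 held 63.9, 70.2 and 68.2 FPKM in sh-RAD51C, against 61.7, 61.3 and 63.7 FPKM in NC, so that its groups nearly touched, and its limma adjusted p was 0.0397. The call of IARS1 was lost without NC replicate 1 (limma adjusted p = 0.112), NC replicate 2 (0.129), sh-RAD51C replicate 2 (0.147) or sh-RAD51C replicate 3 (0.0972), and it held in 7 of 15 alternatives. LARS1 (limma adjusted p = 0.028) was called in 8 of 15 alternatives and lost its call without the same libraries (limma adjusted p of 0.104, 0.0651, 0.111 and 0.0631 in that order). EPRS1, the fused glutamyl-prolyl enzyme, had a log2 fold change of 0.11 (interval 0.01 to 0.20, limma adjusted p = 0.0652), was called without sh-RAD51C replicate 1 (0.0133), and was called in 3 of 15 alternatives.

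QARS1, for glutamine, was the synthetase that fell. It held 69.3, 66.2 and 67.4 FPKM in sh-RAD51C, against 82.9, 79.9 and 80.5 FPKM in NC. The log2 difference was -0.26 ± 0.035 (SE; limma adjusted p = 1.10e-04), and it was called in all 15 alternatives. QARS1 lies on chromosome 3 from 49095932 to 49105135 and is singled out here after its values were seen. The FPKM ratio of QARS1 to RARS1, its partner in the multisynthetase complex, was 1.49, 1.42 and 1.5 in sh-RAD51C, against 2.23, 2.14 and 2.12 in NC, again as a description.

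SARS1, WARS1, AARS1 and CARS1, for serine, tryptophan, alanine and cysteine, were not called. SARS1 held 127.7, 125.1 and 123.8 FPKM in sh-RAD51C, against 125.4, 127.9 and 126 FPKM in NC, with an interval of -0.08 to 0.06. AARS1 held 27.9, 28.5 and 27.2 FPKM in sh-RAD51C, against 28.6, 29.7 and 27.1 FPKM in NC, with an interval of -0.12 to 0.07. WARS1 and CARS1 had intervals of -0.11 to 0.05 and -0.16 to 0.07. These intervals do not reach the 0.29 or more seen for RARS1, HARS1, FARSA, GARS1, TARS1, VARS1 and FARSB.

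By level, SARS1 was the most abundant synthetase per length in both groups. KARS1 ranked 2 in sh-RAD51C at 82.7 ± 3.28 FPKM and 3 in NC at 73.2 ± 2.33 FPKM. QARS1 ranked 4 in sh-RAD51C and 2 in NC. In sh-RAD51C, QARS1 (67.6 ± 1.59 FPKM) and IARS1 (67.4 ± 3.19 FPKM) did not differ beyond their spread (SD, n = 3 each), and neither did RARS1 and WARS1 (45.7 ± 1.21 FPKM). FARSB was the lowest in both groups, with the length limit given above, and CARS1 the next lowest, at 18 ± 0.474 FPKM in sh-RAD51C and 18.6 ± 1.3 FPKM in NC.

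The enzymes fall into structural classes that differ in the fold of the catalytic domain. Of 9 class I genes (CARS1, IARS1, LARS1, MARS1, QARS1, RARS1, VARS1, WARS1 and YARS1), 6 rose and 1 fell, and the median log2 change was 0.14. Of 9 class II genes, 7 rose and 0 fell, and the median was 0.29. EPRS1 carries a domain of each class and was left out of both. Of the 7 genes whose enzymes sit in the multisynthetase complex, 5 rose and 1 fell (median 0.14), and of the 12 other genes 8 rose and 0 fell (median 0.24). The shares called higher were 66.7% in class I, 77.8% in class II, 71.4% in the complex and 66.7% outside it. Over all genes tested, 23.2% were called higher and 26.2% lower. The differences between these classes were not tested.

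AIMP1, AIMP2 and EEF1E1, which encode the scaffold proteins of the multisynthetase complex, rose. AIMP2 held 21.8, 21.8 and 21.4 FPKM in sh-RAD51C, against 13.7, 13.9 and 15.1 FPKM in NC, a log2 fold change of 0.57 (limma adjusted p = 2.03e-06). EEF1E1 held 5.57, 4.61 and 4.99 FPKM in sh-RAD51C, against 2.5, 3.05 and 2.89 FPKM in NC (log2 fold change 0.67), and AIMP1 rose by 0.31.

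Mitochondrial synthetases, nuclear genes whose enzymes charge tRNA in the organelle, were all tested. Of the 17, 6 rose (35.3%, against 23.2% of all genes) and 0 fell (against 26.2%), and the median log2 change was 0.08. MARS2 held 3.96, 3.71 and 3.95 FPKM in sh-RAD51C, against 2.16, 2.1 and 2.35 FPKM in NC, a log2 fold change of 0.60 (limma adjusted p = 1.35e-05). NARS2 rose by 0.37 and YARS2 by 0.24. Whether the mitochondrial and cytosolic genes differ was not tested.

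**Figure D3:**
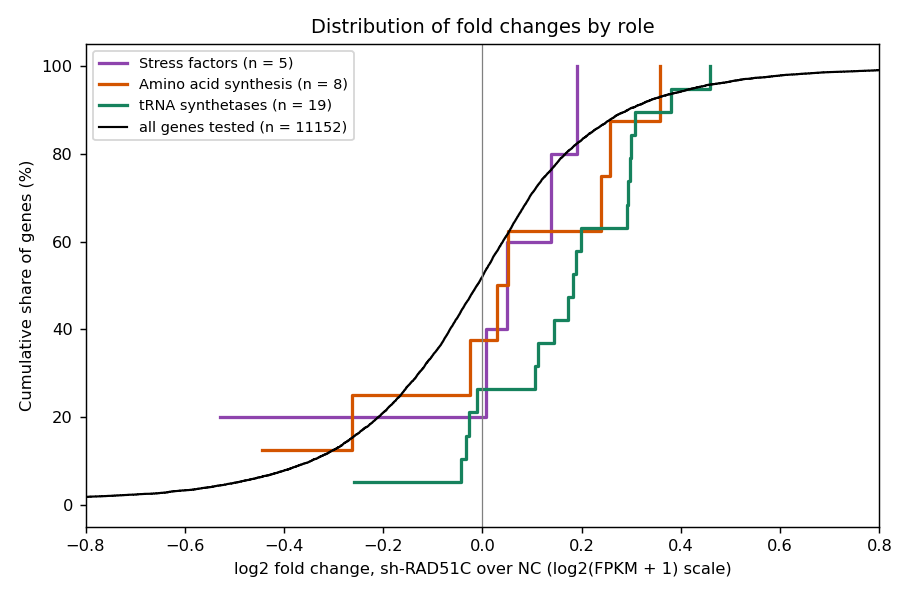
Cumulative share of genes against log2 fold change, sh-RAD51C over NC, for the stress factors, synthesis enzymes and synthetases tested, with all 11152 genes in black. The synthetase curve lies to the right of that of all genes over most of its range (median 0.18 against -0.01), while the other curves cross it.

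The arm upstream of ATF4 was described through 16 genes fixed as a list, all of them tested, of which 8 rose (50%, against 23.2% of all genes) and 1 fell (6.25%, against 26.2%). PPP1R15A encodes GADD34, the phosphatase subunit that removes phosphate from eIF2, and is itself an ATF4 pathway target. It held 43.2, 42.5 and 41.6 FPKM in sh-RAD51C, against 29.7, 30.4 and 30.3 FPKM in NC, a log2 fold change of 0.48 (limma adjusted p = 1.19e-06). EIF2S1, the eIF2 subunit that is phosphorylated, rose by 0.32, and EIF2B4, a subunit of its exchange factor, by 0.24. Among the eIF2 kinases, EIF2AK4 (GCN2, which senses uncharged tRNA) rose by 0.17, although its groups overlapped, and EIF2AK1, EIF2AK2 and EIF2AK3 were not called, with log2 fold changes of -0.09, -0.06 and 0.07. The kinases were picked for their roles after the values were seen. Without NC replicate 1 only 4 of the list were called.

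Other ATF4 targets went both ways. Of 17, 11 were tested, and 6 rose (54.5%, against 23.2% of all genes) while 2 fell (18.2%, against 26.2%). ATF3, a stress-induced factor, held 2.82, 3.23 and 3.45 FPKM in sh-RAD51C, against 1.52, 1.6 and 1.77 FPKM in NC (log2 fold change 0.66). DDIT4, an inhibitor of mTORC1 signalling that also answers to hypoxia and glucocorticoids, held 173.6, 166.3 and 164.6 FPKM in sh-RAD51C, against 365.9, 363.6 and 329.7 FPKM in NC (log2 fold change -1.06, limma adjusted p = 2.28e-08). KLHL24 fell by 0.57 on the log2 scale. CTH, EIF4EBP1, XPOT, ATF5 and GPT2 also rose, by 0.49, 0.39, 0.33, 0.24 and 0.20. SESN2, GDF15 and HMOX1, the other 3 tested, were not called.

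Of 12 amino acid transporters tested, 3 were higher (25%) and 2 lower (16.7%), and the share called, 41.7%, was near the 49.4% of all genes. SLC7A11, the cystine importer, held 4.81, 5.09 and 6 FPKM in sh-RAD51C, against 3.61, 3.38 and 3.65 FPKM in NC (log2 fold change 0.47, limma adjusted p = 3.38e-04). The glutamine importer SLC1A5 and the arginine and lysine importer SLC7A1 each fell by 0.16 on the log2 scale.

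Enzymes that neighbour the synthesis genes in glutamine, arginine, proline and folate metabolism were called in both directions. Of 22 listed, 18 were tested, 8 rose (44.4%, against 23.2% of all genes) and 5 fell (27.8%, near the 26.2% of all genes). GLUL, glutamine synthetase, held 33, 31.6 and 32 FPKM in sh-RAD51C, against 64.1, 64.5 and 58.6 FPKM in NC (log2 fold change -0.93, limma adjusted p = 3.96e-08). ASS1, which joins citrulline and aspartate in arginine synthesis, held 39.8, 32.4 and 41.2 FPKM in sh-RAD51C, against 115.8, 118.8 and 99 FPKM in NC (log2 fold change -1.54, limma adjusted p = 1.57e-07). OAT, which links ornithine to the proline precursor, rose by 0.40. PYCR3, a proline reductase chosen after its values were seen, rose by 0.45.

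Genes of the wider unfolded protein response, which respond mainly to the ATF6 and IRE1 arms, were also listed. All 18 were tested, 2 rose (11.1%, against 23.2% of all genes) and 5 fell (27.8%, near 26.2%), and the median log2 change was -0.03. XBP1, the factor of the IRE1 arm, held 39.1, 40 and 38.2 FPKM in sh-RAD51C, against 50.4, 53 and 50.5 FPKM in NC (log2 fold change -0.38, limma adjusted p = 8.97e-06). DNAJC3 fell by 0.17 and SDF2L1 rose by 0.17. HSPA5, the main chaperone of the endoplasmic reticulum, named after its value was seen, was not called, at -0.04. The number called fell to 2, 3 and 4 without NC replicates 1, 2 and 3.

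**Figure D4:**
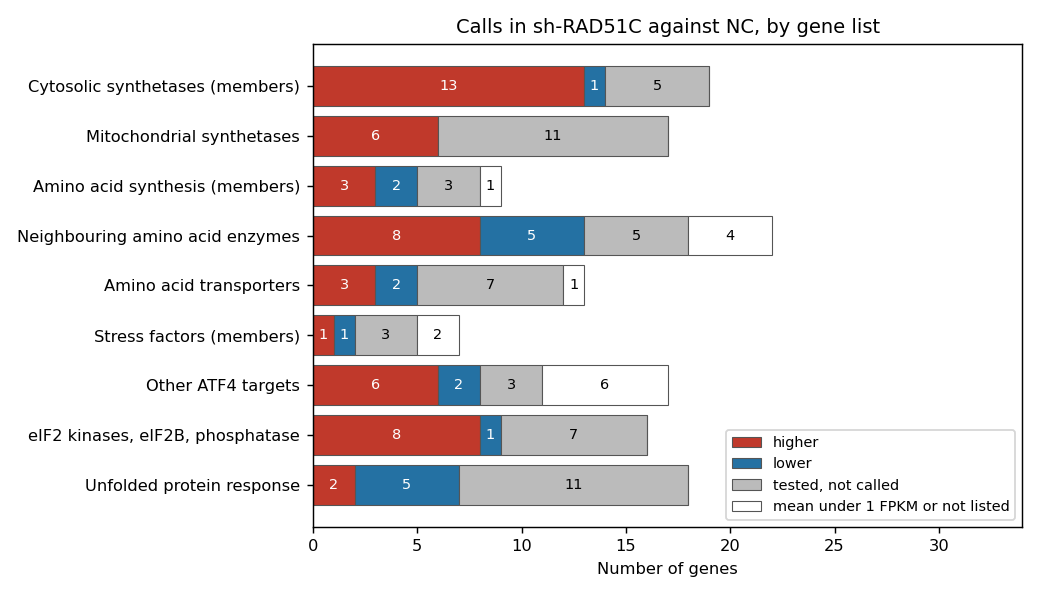
Number of genes called higher, called lower, tested without a call, and not tested (mean under 1 FPKM or not listed) in 9 gene lists, sh-RAD51C against NC. The cytosolic synthetases have 13 higher and 1 lower of 19, and the unfolded protein response list has 2 higher and 5 lower of 18.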

How the data were processed

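Total RNA was sequenced in 6 libraries, 3 per group. The authors deposited FPKM values per gene symbol; the build was hg38 (per the submitters' processing notes). Aligner, counter, annotation and strand setting: not given in the sources used here. Each of the 6 columns matched a title, leaving 0 unused. Genes averaging at least 1 FPKM were fitted as log2(FPKM + 1) with limma 3.58.1 under R 4.3.3 using a mean-variance trend in empirical Bayes moderation and Benjamini-Hochberg adjustment over all 11152 genes. This scale understates changes of low genes.

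Library totals were inferred from the FPKM of genes whose RefSeq length returned 1 shared whole number (634 to 652 genes per library), and whole reads followed for 99.93% of tested genes. Inferred reads describe depth and feed 1 alternative, limma's voom. Within groups, chi-square divided by its degrees of freedom was 3.69 to 14.3 between libraries, more than sampling noise, and none was merged.

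The members, gene lists and tests were chosen with earlier results of these data known, so no count is independent evidence. Library values are given for RAD51C, ATF4, DDIT3 and ASNS, for called members with the largest change in each role (up to 4 stress factors, 5 synthesis enzymes, 2 others and 6 synthetases), for the 2 smallest changes per role, and for up to 3 genes of each other list by smallest p. Positions and exon overlaps are from GENCODE 29 (GRCh38), and promoters from RefSeq. The fit and the inference were tested on simulated data. Alternatives numbered 15. The remaining steps used pandas 2.3.3, scipy 1.17.1 and numpy 2.4.6 under Python 3.11.15, and matplotlib 3.10.9.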

Additional observations from a re-analysis of the deposited data

How the results depend on the processing

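Under 15 alternatives (another pseudocount, 2 other limits on low values, 3 rescalings, no variance trend, a replicate block, voom on inferred reads, and the omission of each library), 474 recomputed fold changes of members kept their side of the test, 17 lost a call and 3 gained one, in TRIB3, IARS1, LARS1 and EPRS1, and no called value changed sign. The synthetases called higher numbered 11 to 14 and the stress factors called higher 0 to 1 when single libraries were left out. Over those omissions the eIF2 list had 4 to 9 genes called and the unfolded protein response list 2 to 7. With no limit on low values these 2 lists had 5 and 4 called. At a mean of at least 5 FPKM, 1859 genes in all were called lower against 2922, with 5 of the other ATF4 targets and 3 amino acid transporters called, since fewer genes were tested. Same-numbered libraries of the 2 groups correlated in their deviations at 0.19, 0.03 and 0.09, so the numbers were not taken to pair them, and not every library correlated best with its own number. With the replicate block 5569 genes were called against 5511. No rescaling moved the median of all genes by more than 0.1. Changes under about 0.1 on the log2 scale are near the limit of 3 libraries per group.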

Other observations

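The gene lengths behind the deposited values, inferred from the FPKM, differed from the exonic bases of GENCODE 29. The length of ATF4 came out at 7716 bases, against 2514 exonic bases in a span of 2991 bases, and that of CHAC1 at 6081 bases, against 2058 exonic bases. FARSB had 9202 and 3369 bases. HARS1 and YARS1 lay on the other side, with 1948 inferred and 7853 exonic bases and with 2518 inferred and 8212 exonic bases. A length acts on the level of a gene in every library alike and leaves its ratio between groups as it is, apart from the constant of 1 FPKM added before the log.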
